A study of Homo sapiens with 20 samples.

Results

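Secondary tumorspheres were compared in SUM159PT, an established line of triple-negative breast cancer with mesenchymal character, between a cell pool labelled KOs and wild-type cells (wt). The comparison rested on 6 of the 20 libraries of the series, 3 of the labelled KOs and 3 of wt, taken by their group and culture labels. The label KOs stands for CRISPR/Cas9 cells made with 1 sgRNA placed at the transcription start site of NNMT, and the pool was mixed from several clones, so the edit, the guide and the clones cannot be told apart. No pool that was cloned without an edit of NNMT was analysed here. Tumorspheres of both groups grew in suspension (3D) in DMEM:F12 with B27, EGF at 20 ng/mL and basic FGF at 20 ng/mL, for 6 days in each of 2 rounds with a dissociation between them. A further 3 groups served as comparators: adherent cells (2D) of the labelled KOs (n = 3) and of wt (n = 3), and tumorspheres of a pool labelled KOd (n = 3), in which 2 sgRNAs were meant to delete exon 1 of NNMT. Whether the 3 libraries of a group are separate cultures is not in the labels, so the p-values speak to the spread among libraries only, which may be technical.

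NNMT, nicotinamide N-methyltransferase, moves a methyl group from S-adenosylmethionine to nicotinamide and so touches both the methionine cycle and NAD salvage. In epithelial and tumour cells, interleukin-1 family ligands signal through their receptors and MyD88 to the transcription factor NF-kB. NF-kB switches on chemokines, acute-phase proteins and its own inhibitors, and receptor antagonists of the interleukin-1 family limit the signal. Mesenchymal breast cancer lines also make an extracellular matrix of collagens and fibronectin, and some carry genes of the basal, or myoepithelial, layer of the breast such as TP63 and its keratins.

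NNMT mRNA was not lowered in the labelled KOs. NNMT (Entrez 4837, chromosome 11, 114257806 to 114313536 in GRCh38.p14) had 85.7, 79.5 and 130 CPM (read counts scaled to a common library size) in the 3 wt tumorsphere libraries A, B and C, and 85.1, 82.9 and 86.4 CPM in those of the labelled KOs. The groups overlapped, and the log2 fold change, labelled KOs against wt here and below unless stated, was -0.21 ± 0.17 (standard error, SE; adjusted p = 0.30, edgeR). KOd tumorspheres had 4.65, 5.18 and 5.64 CPM, and the labelled KOs were higher than KOd by 4.04 ± 0.20 on the log2 scale (adjusted p = 1.1e-10). Protein was not measured in these files. The directions below are those of the libraries with that label.

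The 3 libraries of the labelled KOs held 37316513 to 39944290 reads counted on genes and the 3 of wt 29824678 to 32016875. Ribosomal RNA genes took 1.45% to 1.88% of the reads in the labelled KOs and 5.27% to 8.46% in wt. Depth and ribosomal share thus separated the groups, and their part in the results was not tested beyond recounts with reads thinned to 1 depth and with these genes left out, which moved the counts of calls by less than 1.5 times. The comparators were separated in the same way. In 2D the labelled KOs held 39789580 to 43744817 reads (0.93% to 2.70% ribosomal) and wt 27432256 to 27992072 (2.99% to 6.85%). KOd tumorspheres held 27810953 to 30131281 reads (2.82% to 5.33%). Library wt C stood apart: its counts differed from those of wt A and wt B by a chi-square per degree of freedom of 85.7 and 92.7, while A and B differed by 5.14 and the pairs of the labelled KOs by 3.68 to 5.89. Results that rest on wt C are given with and without it. Both groups carried VIM at 2734 to 5526 CPM, and the epithelial genes CDH1 and EPCAM and the hormone receptor genes ESR1 and PGR were at or near 0.

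Of 16323 genes tested, 56.3% passed an adjusted p of 0.05, 27.8% higher and 28.5% lower in the labelled KOs. A change of at least 2-fold was called for 23.1%, with 1803 higher and 1962 lower, and the CPM ranges of the groups did not overlap for 68.7%. These shares are the background for every count of genes below. With libraries scaled by their totals alone, the median log2 fold change of all genes was 0.18 in place of 0.016, and 63.1% of the called genes were higher in place of 49.3%. None of the rises and falls named below turned direction under that scaling or any other setting, except where said.

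Genes of the interleukin-1 family and of the acute-phase response were prominent among the largest rises. Of the 15 largest rises among genes with a mean of at least 10 CPM and no overlap between groups, IL36RN, IL36B and IL1RN belong to the interleukin-1 family, and SAA1, SAA2, the SAA2-SAA4 readthrough, LCN2, PI3 and CHI3L1 to the acute-phase and antimicrobial list. The others were AQP9, GOLGA2P11, CSF3, TRPM2, TFPI2 and IL24. Their log2 fold changes ran from 6.19 to 10.18, apart from LCN2.

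LCN2 encodes lipocalin 2, which withholds iron carriers from bacteria. It had no read in wt A and wt B, 0.0349 CPM (1 read) in wt C, and 28.6, 26.2 and 24.7 CPM in the labelled KOs. The ratio of the summed counts was 2370, with a 95% interval of 425 to 93600 that covers counting error only. SAA1, serum amyloid A1, had 3.00, 3.33 and 3.80 CPM in wt and 516, 511 and 526 CPM in the labelled KOs, a log2 fold change of 7.26 ± 0.31 (adjusted p = 3.6e-12). SAA1 and SAA2 are near-identical neighbours on chromosome 11, so their shares of these reads are uncertain, but both were counted higher. CHI3L1, a secreted chitinase-like glycoprotein, had 8.46, 8.03 and 73.6 CPM in wt and 2668, 2584 and 2629 CPM in the labelled KOs. Library wt C was the high one of the wt libraries, and the log2 fold change was 6.45 ± 0.70 with it and 8.30 without it. S100A9, 1 of the 2 chains of calprotectin, had 16.5, 15.4 and 17.4 CPM in wt and 956, 885 and 926 CPM in the labelled KOs, a rise of 5.81 ± 0.29 (adjusted p = 2.3e-11).

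Of 16 tested genes of the serum amyloid, lipocalin and calprotectin list, 15 rose and none fell, with a median log2 fold change of 5.66 against 0.016 over all genes. The smaller rises included CFB, complement factor B, at 1.41 ± 0.45 (adjusted p = 0.013). The member that did not pass was C3, the central complement protein, with 927, 893 and 2240 CPM in wt and 2544, 2511 and 2593 CPM in the labelled KOs. Its log2 fold change was 0.91 (adjusted p = 0.061), and 1.47 (adjusted p = 0.0053) without wt C, the library with the high value.

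Among the 16 tested genes of the interleukin-1 family and its receptors, 12 rose and 3 fell (median 2.30). The ligand gene IL1B had 6.20, 5.88 and 4.11 CPM in wt and 213, 216 and 208 CPM in the labelled KOs, a log2 fold change of 5.30 ± 0.22. Every library of the labelled KOs lay far above every wt library. The alarmin ligands IL1A (2.50 ± 0.25) and IL33 (1.27 ± 0.13) and the signalling receptor IL1R1 (1.14 ± 0.12) also rose. So did the receptor gene IL1R2 (3.49), while the receptor accessory gene IL1RAP fell by 1.29 on the log2 scale (adjusted p = 1.3e-07). Both antagonists rose with the ligands. IL1RN, which blocks the interleukin-1 receptor, had 0.0323, 0.202 and 0.174 CPM in wt and 23.6, 21.2 and 19.9 CPM in the labelled KOs, a change of 7.29 ± 0.63. IL36RN, the antagonist of the interleukin-36 receptor, had 0.388, 0.134 and 0.453 CPM in wt and 390, 382 and 371 CPM in the labelled KOs, a change of 10.18 ± 0.58 (adjusted p = 8e-10). IL36B, a ligand of the same receptor, rose by 8.24, from at most 0.488 CPM in wt. IL18 went the other way, from 19.1, 19.5 and 24.5 CPM in wt to 10.2, 9.94 and 9.50 CPM (-1.09 ± 0.11). CASP1, of the same list, fell by 1.03 on the log2 scale (adjusted p = 1.4e-05).

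**Figure D1:**
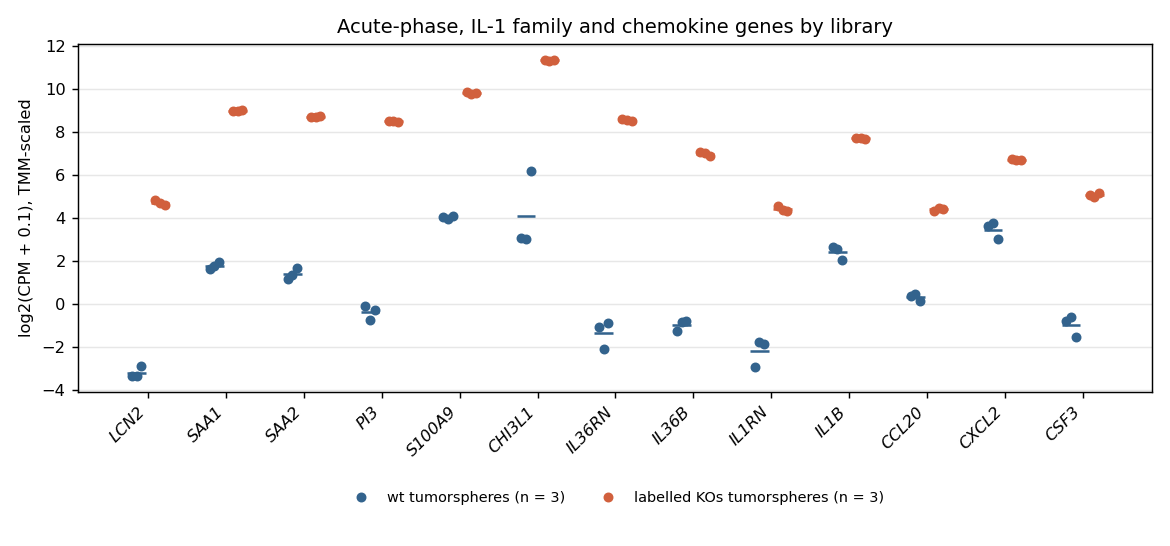
Levels of 13 inflammatory genes in each tumorsphere library, as log2 of CPM plus 0.1 on the vertical axis, with wt in blue, the labelled KOs in orange and a bar at each group's mean. The 3 orange points of a gene lie close together and above its blue points, and the lone high blue point of CHI3L1 is wt C.

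Of 9 tested chemokine genes of the NF-kB list, 5 rose and 2 fell (median 2.04). CXCL1 had 5.33, 5.00 and 3.52 CPM in wt and 29.7, 27.8 and 28.1 CPM in the labelled KOs. CXCL2 went from 12.5, 13.5 and 8.02 CPM to 107, 104 and 104 CPM, and CXCL3 from 4.04, 4.47 and 2.13 CPM to 23.5, 23.5 and 23.3 CPM. These 3 chemokines and CXCL8 (2.04 ± 0.45) draw neutrophils through the receptor CXCR2. CCL20, the ligand of CCR6, went from 1.20, 1.31 and 1.01 CPM in wt to 20.5, 22.2 and 21.4 CPM (4.18 ± 0.20). CXCL10, an interferon-inducible T cell chemokine, fell by 1.53 on the log2 scale (SE 0.48, adjusted p = 0.011).

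The promoters of 4 of these chemokine genes carry an NF-kB type motif close to the start site, and their sequences are given because the genes rose together. The motif GGGNNTTTCC was searched on both strands, so that it can also read GGAAANNCCC, in the 250 bases before the RefSeq start of each gene (GRCh38.p14). It was chosen after the rises were known. A match is a description of letters and not of binding. The lines show 5′ to 3′ on the gene's strand, with the matches in capitals.
CCL20 (chr2:227813743-227813792, plus strand): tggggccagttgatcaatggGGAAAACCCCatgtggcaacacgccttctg
CXCL1 (chr4:73869294-73869343, plus strand): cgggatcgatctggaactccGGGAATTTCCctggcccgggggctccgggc
CXCL2 (chr4:74099244-74099293, minus strand): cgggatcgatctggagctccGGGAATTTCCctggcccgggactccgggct
CXCL3 (chr4:74038739-74038788, minus strand): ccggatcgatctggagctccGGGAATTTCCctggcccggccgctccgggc
NFKBIZ (chr3:101827747-101827796, plus strand): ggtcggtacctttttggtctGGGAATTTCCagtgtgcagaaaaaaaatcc
TNFAIP3 (chr6:137867172-137867233, plus strand): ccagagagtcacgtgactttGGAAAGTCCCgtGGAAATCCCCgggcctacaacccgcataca

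The stretches of CXCL1, CXCL2 and CXCL3 hold the same 10 letters in near-identical surroundings, as neighbouring copies of 1 ancestral gene do, so they are not 3 independent instances. Over all tested genes with a sequence, 255 of 12494 (2.04%) held the motif. It was present for 4 of the 5 chemokine genes that rose and for 2 of 11 NF-kB subunit and feedback genes that rose. Both lists were gathered as genes tied to NF-kB, so a share above that of all genes was likely beforehand. List members that did not rise were not counted apart. The shares therefore cannot speak to NF-kB in these libraries. None of 11 interleukin-1 family genes and none of 10 acute-phase genes that rose and had a sequence held these letters in that window.

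Of 22 NF-kB subunit and feedback genes, 11 rose and 4 fell (median 0.32). The other 7 did not pass, among them NFKBIA, the inhibitor that holds NF-kB in the cytoplasm, at 0.04 ± 0.12 (adjusted p = 0.77). Of the regulators that rose, NFKBIZ, a nuclear IkB protein needed for part of the interleukin-1 response, went from 24.7, 23.3 and 22.1 CPM in wt to 79.2, 85.0 and 78.1 CPM (1.79 ± 0.28). TNFAIP3, the ubiquitin-editing inhibitor A20, rose by 1.05 ± 0.12. SOD2, the mitochondrial superoxide dismutase and a known NF-kB target, went from 586, 613 and 965 CPM to 3269, 3184 and 3138 CPM. Of the subunits themselves, NFKB2 rose by 0.44 ± 0.11, while NFKB1 fell by 0.31 (SE 0.07) and RELA fell by 0.54 (SE 0.15) on the log2 scale. The inflammatory transcripts thus differed by far more than those of the subunits, whose protein and location were not measured.

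Among interleukin-6 family and colony-stimulating factor genes, 6 of 14 rose and 4 fell (median 0.12). IL6 went from 11.2, 11.0 and 7.70 CPM in wt to 52.0, 54.3 and 53.9 CPM, and LIF rose by 2.48 ± 0.20. CSF3, the growth factor of granulocytes, went from 0.484, 0.571 and 0.244 CPM to 33.8, 31.4 and 36.8 CPM (6.27 ± 0.40). Of 38 interferon-stimulated genes, 7 rose and 10 fell (median -0.16), and without the 3 libraries that stand apart (wt 3D C, labelled KOs 2D A and KOd 3D C) 14 rose and 11 fell. OASL (3.65 ± 0.66), RSAD2 (4.40 ± 0.73) and ISG15 (2.30 ± 0.37), antiviral genes, were among the 7 that rose. OAS1 (-2.38), EPSTI1 (-2.33) and IFI44L (-1.73) were among the 10 that fell. Of 22 class I antigen presentation genes, 4 rose and 3 fell, or 11 rose with those 3 libraries left out.

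Leukocyte markers were read beside these genes. Of 23 such markers, 8 passed the filter on low counts, of which 3 rose (CD14, CD68 and CD163) and 2 fell (PTPRC and CD4). Their summed level was 21.1 to 24.3 CPM in wt and 194 to 208 CPM in the labelled KOs, and CD68 alone had 184 to 194 CPM there. CD68 is a lysosomal protein that is not confined to macrophages. The pan-leukocyte gene PTPRC fell, and 7 of the 23 markers, the T cell gene CD3E and the B cell gene MS4A1 among them, had no read in any of the 6 libraries. The part of CD14, CD68 and CD163 in the inflammatory result was not tested.

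Matrix genes fell. Of 26 tested collagen genes, 20 fell and 5 rose (median -1.50). COL1A1, the main chain of type I collagen, had 4045, 3517 and 5437 CPM in wt and 29.4, 31.8 and 34.1 CPM in the labelled KOs, a log2 fold change of -7.09 ± 0.26. COL1A2, the partner chain, went from 32.8, 27.1 and 48.4 CPM to 0.0980, 0.225 and 0.0695 CPM (-8.08 ± 0.45). COL6A3 of microfibrillar type VI collagen went from 7963, 7268 and 8618 CPM to 2003, 2141 and 2155 CPM. Both chains of type I collagen were thus far below every wt library. Among the rises were COL14A1 (2.79 ± 0.40) and COL17A1, a hemidesmosome collagen (1.44 ± 0.31).

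Of 36 matrix glycoprotein and proteoglycan genes, 21 fell and 9 rose (median -1.02). ELN, elastin, went from 53.8, 44.1 and 112 CPM in wt to 0.784, 0.651 and 0.533 CPM in the labelled KOs. BGN, biglycan, went from 277, 268 and 431 CPM to 11.0, 10.8 and 10.7 CPM (-4.91). THBS1, thrombospondin 1, fell by 3.69 (SE 0.29), SPARC from 3056 to 4558 CPM down to 803 to 810 CPM. FN1, fibronectin, fell by a smaller factor, from 33061 to 33970 CPM in wt to 15899 to 16964 CPM. SPP1, osteopontin, was 1 of the 9 genes of this list that rose, from 15.9, 14.3 and 11.2 CPM to 594, 594 and 553 CPM (5.40 ± 0.34).

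Of 15 collagen crosslinking and folding enzymes, 9 fell and 2 rose, and of 17 integrins 9 fell and 2 rose. Matrix proteases and their inhibitors split, with 10 of 29 higher and 9 lower. The collagenase gene MMP1 went from 28.8, 30.4 and 6.80 CPM in wt to 613, 619 and 590 CPM, and the stromelysin gene MMP3 rose by 4.35 ± 0.51. ADAMTS5, an aggrecanase, had 237 reads over the 3 wt libraries and none in the labelled KOs, at least 109-fold lower against a floor of 3 reads over the group. Fibroblast and pericyte markers moved beside the matrix genes, with 6 of 12 lower and 4 higher and a summed level of 5231 to 7677 CPM in wt and 920 to 939 CPM in the labelled KOs. Of these 12 markers, 7 are also in the collagen, matrix or mesenchymal lists, none was at 0, and their part in the matrix result was not tested. In such bulk libraries fewer cells that express a gene and less RNA per cell cannot be told apart.

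Basal genes fell as well. Of 16 tested basal keratin and myoepithelial genes, 13 fell and 1 rose (median -2.23). TP63, the transcription factor of basal cells, went from 243, 251 and 289 CPM in wt to 61.4, 57.4 and 57.8 CPM (-2.15 ± 0.23). KRT5, a basal keratin, went from 20.3, 20.2 and 23.9 CPM to 0.319, 0.150 and 0.185 CPM (-6.60 ± 0.80). Its partner KRT14 fell by 4.29 (SE 0.42) and KRT17 by 4.27 (SE 0.36). CDH3, placental cadherin, went from 23.3, 21.4 and 29.1 CPM to 0.172, 0.175 and 0.255 CPM (-6.91). The 1 rise was MME, a membrane peptidase of myoepithelial cells, from 54.2, 58.0 and 88.0 CPM to 178, 172 and 162 CPM (1.35 ± 0.21). Of 17 luminal and simple epithelial genes, 4 rose and 2 fell (median -0.04), with the keratin KRT23 among the rises at 1.71 ± 0.46, or 2.65 without wt C.

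Of 21 EMT regulators and mesenchymal markers, VIM among them, 14 fell and 1 rose (median -0.77). VIM, vimentin, the main intermediate filament of mesenchymal cells, had 3985, 3923 and 5526 CPM in wt and 2887, 2734 and 2775 CPM in the labelled KOs. The groups did not overlap, and the lowest library still held 2734 CPM. ACTA2, smooth muscle actin, fell by 1.35 (SE 0.28). Breast cancer stem cell markers were mixed, with 4 of 12 higher and 3 lower.

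**Figure D2:**
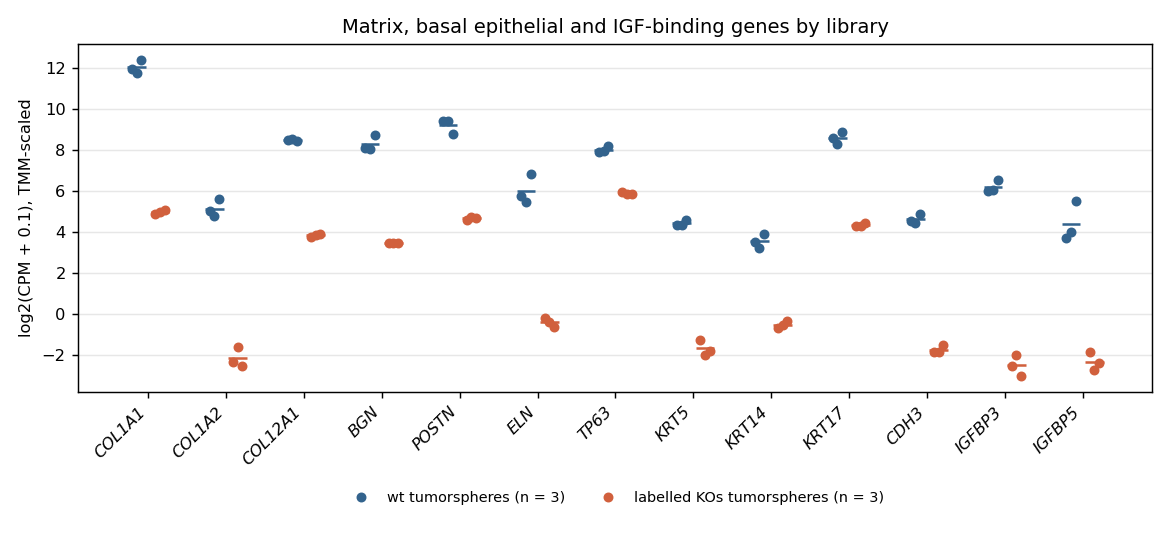
Levels of matrix, basal and growth factor binding genes in each tumorsphere library, as log2 of CPM plus 0.1 on the vertical axis, with wt in blue, the labelled KOs in orange and a bar at each group's mean. The orange points lie below the blue ones for every gene drawn, COL1A1 at 29.4 to 34.1 CPM against 3517 to 5437 CPM.

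Lists of growth factor signalling leaned lower. Of 30 Wnt genes, 16 fell and 3 rose (median -0.77), and the secreted inhibitor DKK1 went from 14.1, 15.9 and 5.30 CPM in wt to 1.54, 1.50 and 2.08 CPM (-2.78 ± 0.49). Of 17 BMP genes, 9 fell and 2 rose, and ID3, a direct BMP target that blocks bHLH factors, went from 22.5, 20.6 and 23.7 CPM to 3.85, 3.63 and 3.85 CPM. Of 18 TGF-beta genes, 11 fell and 4 rose, and the ligand TGFB1 fell by 0.85 (SE 0.16). Of 26 YAP and TAZ target genes, 17 fell and 3 rose (median -0.45), and YAP1 itself went from 224, 232 and 274 CPM to 66.5, 71.8 and 68.7 CPM (-1.82 ± 0.09). Commonly used YAP targets differed among themselves. CCN2 changed by 0.38 ± 0.22 (adjusted p = 0.15) and CCN1 by -0.34 ± 0.14 (adjusted p = 0.041, or 0.15 without wt C). ANKRD1 rose at a low level, from 0.0969, 0.0336 and 0 CPM in wt to 1.25, 1.90 and 1.90 CPM (5.12 ± 0.83).

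Of 15 IGF pathway genes, 7 fell and 3 rose. IGFBP3, which binds insulin-like growth factors, had 63.6, 65.8 and 93.8 CPM in wt and 0.0735, 0.150 and 0.0232 CPM in the labelled KOs (-9.78 ± 0.40). IGFBP5, a related binding protein, changed by -7.83, or by -7.08 without wt C, which had the highest level. Of 27 ERK feedback genes, 7 rose and 9 fell, and of 14 EGFR family genes, 5 rose and 3 fell.

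**Figure D3:**
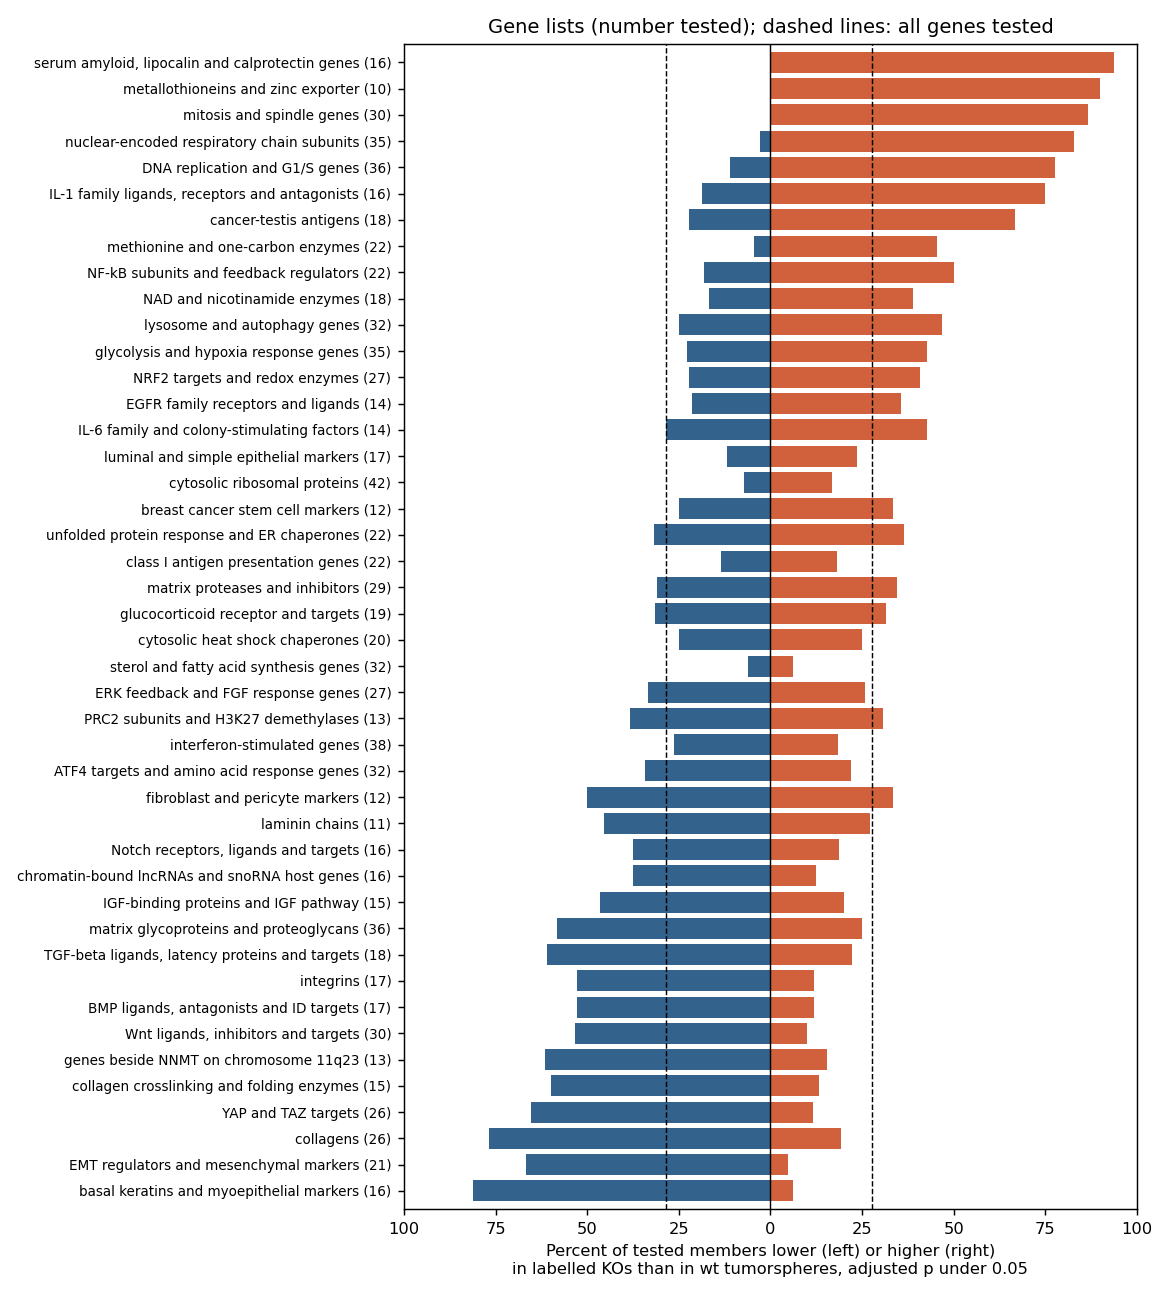
Percent of the tested members of each gene list drawn that were lower (left) or higher (right) in the labelled KOs than in wt tumorspheres. The threshold was an adjusted p of 0.05, and dashed lines mark the shares over all genes, 28.5% lower and 27.8% higher. Lists with few tested genes are not drawn, nor is the p53 pathway list (6 of 26 tested genes higher, 15 lower). Lists of acute-phase, respiratory chain, metallothionein, mitosis and replication genes reach far right, and collagens, basal genes and EMT markers far left.

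Of the 15 largest falls, IGFBP3, IGFBP5 and COL1A2 have been described. BEX1, a small adaptor protein of neurons, had 80.0, 82.9 and 55.8 CPM in wt and no read in the labelled KOs, at least 3020-fold lower. F10, coagulation factor X, had 139, 125 and 185 CPM in wt and a single read in the labelled KOs, and the ratio of wt to labelled KOs was 18500 (95% interval 3320 to 730000, counting error only). SGCZ, zeta-sarcoglycan, had no read there either, at least 1280-fold lower. CADM1, a cell adhesion molecule, had 2 reads in the labelled KOs against 41.3 to 62.6 CPM in wt, a ratio of 3370 (933 to 27900). HPGD, the enzyme that inactivates prostaglandins, went from 88.1, 101 and 72.2 CPM in wt to 0.0245, 0.0250 and 0.0463 CPM (-11.23). In the same libraries PTGS2, cyclooxygenase 2, which makes the prostaglandin precursor, went from 4.72, 5.54 and 2.86 CPM to 35.5, 34.7 and 35.5 CPM. The remaining falls were MEST, B3GALNT1, H2AJ, MARCHF1, PADI4, GRIN2A and POGLUT3.

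Cell division genes rose in the labelled KOs. Of 30 mitosis and spindle genes, 26 rose and none fell (median 0.69), and of 36 DNA replication and G1/S genes, 28 rose and 4 fell (median 0.92). Rises of at least 2-fold were called for 5 of the mitosis and 14 of the replication genes, against 1803 of all 16323 genes. These counts and medians include wt C. Without it, AURKA (0.79), CDCA8 (0.84) and NDC80 (0.79) were below 2-fold, and AURKB (1.76) and CDC25C (1.33) stayed above, on the log2 scale. Replication genes split likewise, with RRM2 (0.87) and RFC4 (0.89) among those below 2-fold without wt C and E2F1 (1.26) and CDC45 (1.19) among those above. AURKB, a kinase of chromosome segregation, had 13.3, 13.9 and 6.27 CPM in wt and 45.4, 48.0 and 46.4 CPM in the labelled KOs. CDC45, a part of the replicative helicase, went from 19.5, 18.3 and 7.98 CPM to 42.9, 43.7 and 44.5 CPM (1.52 ± 0.23). Library wt C was the low one for both. MKI67, the proliferation marker Ki-67, showed the weight of that library most: it had 282, 281 and 65.3 CPM in wt and 371, 386 and 374 CPM in the labelled KOs, with a log2 fold change of 0.85 (adjusted p = 0.046), and of 0.41 (adjusted p = 0.11) without wt C. Without that library 22 mitosis genes rose and 1, ASPM, fell (-0.50, against -0.20 with an adjusted p of 0.39 with it). The G1 genes CCND1 and CDK6 went the other way and fell by 0.68 (SE 0.11) and 0.87 (SE 0.13) on the log2 scale, while MYC rose by 0.95 ± 0.18. CDKN1A, the cell cycle inhibitor p21, had 201, 188 and 276 CPM in wt and 111, 112 and 113 CPM in the labelled KOs, a log2 fold change of -0.98.

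Of 10 tested genes of the metallothionein and zinc exporter list, which also holds the transcription factor MTF1, 9 rose and none fell (median 1.92). MTF1 rose by 0.31, and the zinc exporter SLC30A1 was the member that did not pass (0.03, adjusted p = 0.86). MT1X, a metal-binding protein, went from 18.7, 17.4 and 29.7 CPM in wt to 143, 135 and 137 CPM (2.66), and MT2A rose by 1.41 ± 0.16. The MT1 genes are near-identical copies, so the split of reads between them is uncertain. MT1A had a log2 fold change of 1.70, or 2.29 without wt C. Of 35 nuclear-encoded respiratory chain genes, 29 rose and 1 fell, with a small median of 0.47 and no rise of 2-fold. Cytosolic ribosomal protein genes gave 7 higher and 3 lower of 42 (median 0.00), but 19 higher and 1 lower without wt C and 27 and 1 without the 3 libraries that stand apart, so no direction is given for them.

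Genes around the NNMT reaction were read next. Of 18 NAD and nicotinamide genes, 7 rose and 3 fell (median 0.26). NAMPT, the first enzyme of NAD salvage from nicotinamide, had 110, 124 and 107 CPM in wt and 545, 536 and 507 CPM in the labelled KOs (2.22). AOX1, aldehyde oxidase, which oxidises the methylated nicotinamide that NNMT makes, went from 4.39, 4.43 and 2.09 CPM to 73.1, 71.1 and 68.2 CPM (4.28 ± 0.21). QPRT, of NAD synthesis from quinolinate, rose by 2.27 ± 0.54. The methionine and one-carbon list had 10 of 22 genes higher and 1 lower (median 0.42), and of 8 DNA methylation and demethylation genes 1 rose and 4 fell. Of 13 tested genes beside NNMT on chromosome 11q23, 8 fell and 2 rose: HTR3A, a serotonin receptor channel, had 0.0969, 0.101 and 0.105 CPM in wt and 10.8, 10.8 and 10.5 CPM in the labelled KOs, and NCAM1 rose by 5.04 ± 0.57, while CADM1 and DRD2 (-4.39 ± 0.50) fell.

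Whether the difference between labelled KOs and wt depended on culture was tested as an interaction, the difference in 3D minus that in 2D. It passed for 36.8% of all genes, 17.9% with a positive and 19% with a negative value. In 2D alone, 53.2% of genes differed between labelled KOs and wt. The interaction was positive for 27 of 30 mitosis genes and 31 of 36 replication genes and negative for none of either. In 2D the same lists had 1 mitosis gene higher and 14 lower, and 2 replication genes higher and 10 lower. MKI67 had 89.7, 179 and 109 CPM in 2D labelled KOs and 545, 491 and 581 CPM in 2D wt, so that its direction was opposite in the 2 cultures (interaction 2.95 ± 0.50, adjusted p = 0.00023). CDKN1A was higher in 2D labelled KOs, at 100, 89.2 and 111 CPM against 46.0, 49.2 and 56.0 CPM in wt.

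The interaction was negative for 11 of 16 basal genes and positive for 1, while in 2D 7 of them rose and 3 fell. KRT17 had 8.69, 1.83 and 4.71 CPM in 2D labelled KOs and 1.68, 1.97 and 1.73 CPM in 2D wt, far from the 312 to 473 CPM of wt tumorspheres. CDH3, ELN and BGN were below 1 CPM in every 2D library of the labelled KOs and wt, so a fall like that in 3D could not have been seen there. Collagen genes fell in both cultures, 16 of 26 in 2D. COL1A1 had 388, 447 and 591 CPM in 2D wt and 28.3, 17.1 and 16.6 CPM in 2D labelled KOs, and its fall was larger in 3D by 2.57 (SE 0.29) on the log2 scale. Among acute-phase genes the interaction was positive for 6 of 16, among interleukin-1 genes for 4 of 16 (negative for 1) and among the chemokines for 4 of 9. In 2D alone, 11 of the 16 acute-phase genes were higher in the labelled KOs and 1 was lower (median 2.81). Of the 16 interleukin-1 genes, 8 were higher and 3 lower in 2D (median 1.52), and of the 9 chemokines 3 were higher and 1 lower. Over all genes, 27.7% were higher and 25.5% lower in 2D. CXCL1 had 0.0955, 0.107 and 0.0568 CPM in 2D labelled KOs and 0.659, 0.633 and 0.589 CPM in 2D wt, lower there and higher in 3D (interaction 5.41 ± 0.37). AOX1 was high in both groups in 2D, at 275, 211 and 242 CPM in labelled KOs and 261, 239 and 272 CPM in wt, and differed between them in 3D (interaction 4.36 ± 0.27).

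The labelled KOs and KOd tumorspheres share the wt libraries as controls, so they were compared directly. Depth and ribosomal share separated these groups too, and their part was not tested further. The direct contrast is labelled KOs minus KOd. This contrast passed for 47.2% of genes, 23.3% higher and 23.9% lower in the labelled KOs, and KOd differed from wt for 34% of genes. All 30 mitosis genes and 31 of 36 replication genes were higher in the labelled KOs than in KOd, where 18 mitosis genes were lower than in wt and none higher. Of the basal genes, 12 of 16 were lower in the labelled KOs than in KOd and 1 was higher. KRT5 had 23.2, 21.4 and 60.5 CPM in KOd, overlapping with wt, and CDH3 16.0, 14.7 and 30.8 CPM. CDKN1A had 304, 314 and 439 CPM in KOd. MT1X had 19.6, 21.4 and 24.3 CPM in KOd, within its wt range, and 8 of the 10 tested genes of the metallothionein and zinc exporter list were higher in the labelled KOs.

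Acute-phase genes were higher than in wt in both pools, 13 of 16 in KOd and 15 of 16 in the labelled KOs, and 10 were higher in the labelled KOs than in KOd with none lower. LCN2 had 1.10, 0.927 and 2.24 CPM in KOd, between wt and the labelled KOs. IL1B had 15.5, 17.2 and 10.4 CPM in KOd, and the labelled KOs were higher by 3.89 ± 0.20. Of 16 interleukin-1 genes, 13 were higher and 2 lower in the labelled KOs than in KOd. The 9 chemokines were split in that contrast, with 5 higher and 4 lower in the labelled KOs. Against wt, 5 chemokines were higher in KOd and none lower. COL1A1 fell in both pools, to 84.2, 73.6 and 75.3 CPM in KOd. COL6A3 had 2510, 2120 and 1652 CPM in KOd, and the direct difference was 0.00 ± 0.16 on the log2 scale.

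**Figure D4:**
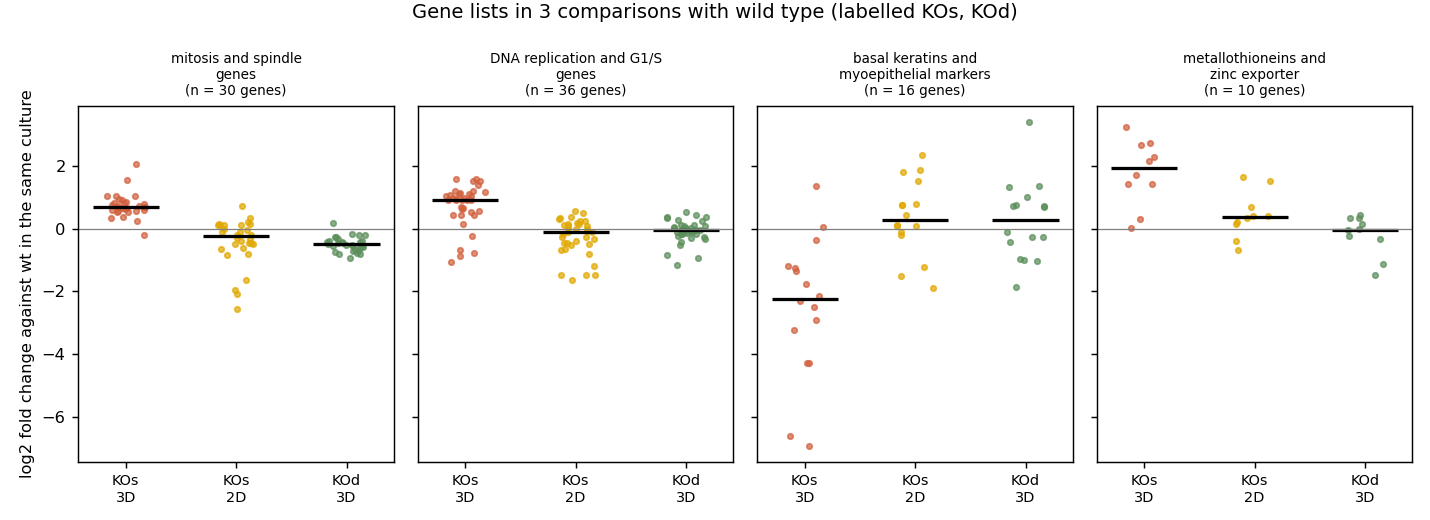
Log2 fold changes (vertical axis) of the genes of 4 lists, 1 dot a gene and a black bar at the median, in labelled KOs against wt in 3D, labelled KOs against wt in 2D, and KOd against wt in 3D. The first and the third share the wt libraries, and the median of the mitosis genes lies at 0.69 in the first and below 0 in the others.

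The differences were unevenly spread over the chromosomes, which is described without a test because the regions were picked after their values were seen. Among 13644 genes with a mean of at least 1 CPM over the 6 libraries, 28.6% were higher and 30% lower in the labelled KOs. On chromosome 13, 65.1% of 229 genes were lower and 9.17% higher (median log2 fold change -0.80), and in 2D the median was -0.93, while in KOd tumorspheres it was -0.014. Some windows of chromosome 13 were low in KOd as well: from 30 to 40 Mb the median was -1.45 in the labelled KOs, -1.58 in 2D and -1.04 in KOd, and from 40 to 50 Mb it was -1.19, -1.01 and -0.79. On chromosome 17, 47.4% of 837 genes were higher and 17.6% lower. In windows of 10 Mb, the first window of chromosome 17 had 86.6% of 164 genes higher (median 1.12, with 0.70 in 2D and 0.67 in KOd). The window from 150 to 160 Mb of chromosome X had 82.2% of 73 genes higher (median 0.90, with 0.92 in 2D and 0.76 in KOd). The window from 100 to 110 Mb of chromosome 11 had 88.9% of 27 genes lower (median -1.34, and -1.23 in 2D and -0.11 in KOd). The part of these regions in the gene lists above was not tested.

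**Figure D5:**
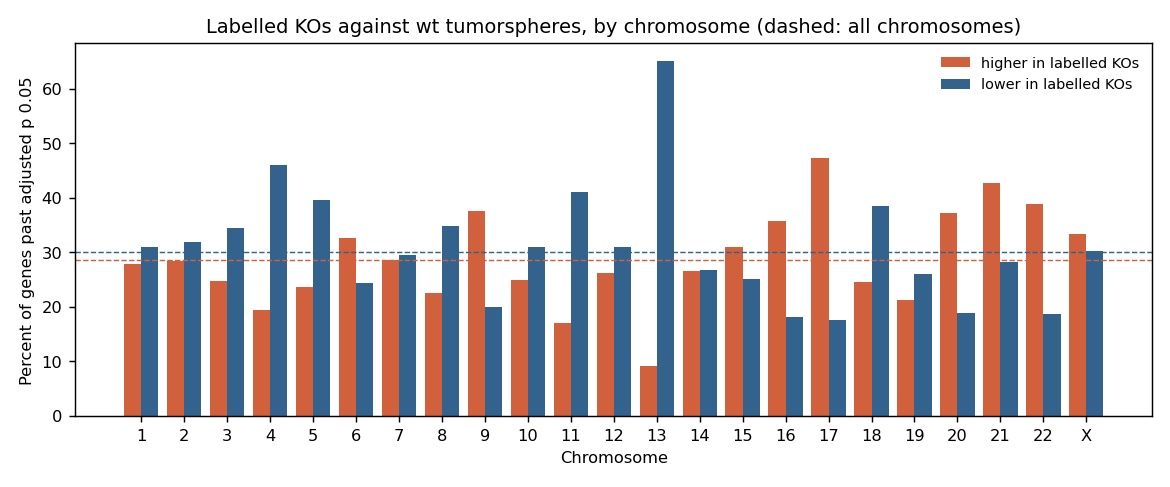
Percent of the genes of each chromosome that were higher or lower in the labelled KOs than in wt tumorspheres, among genes with a mean of at least 1 CPM, with dashed lines at 28.6% higher and 30% lower over all chromosomes. Chromosome 13 stands out with 65.1% lower and chromosome 17 with 47.4% higher.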

How the data were processed

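Stranded poly(A) RNA-seq libraries were aligned with STAR to hg38, per the submitters' processing notes, and the authors deposited 1 table of raw counts per Entrez gene for all 20 libraries. The counting tool, its strand setting and the annotation are not given in the sources used here, so reads of overlapping or antisense genes cannot be told apart. A gene length column was deposited too and not used. Of 27864 gene IDs, 27740 matched a symbol in the RefSeq table of GRCh38.p14.

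Genes passing edgeR's filterByExpr (16323) were fitted with edgeR 4.0.16 in R 4.3.3 by its quasi-likelihood test, with TMM scaling and 1 coefficient for each of 7 groups over all 20 libraries (13 residual degrees of freedom, biological coefficient of variation 0.143). Calls have a Benjamini-Hochberg adjusted p under 0.05. Levels are CPM on TMM-scaled totals, and fold changes are those of the quasi-likelihood fit at edgeR's default prior count. A prior count of 2 was used only for the log2 CPM compared between replicate libraries. Standard errors were taken as the fold change over the square root of F. CPM are not per length and compare samples, not genes. Fold bounds use a floor of 3 reads over the group, and intervals for ratios of few reads are exact at 95% and cover counting error only.

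Named were NNMT and its neighbours, the 15 largest rises and 15 largest falls (adjusted p under 0.05, mean of at least 10 CPM, no overlap), of each list at most 5 members, those of lowest adjusted p, and the 6 largest differences in each test of difference. Other members of the lists, such as C3, CFB, S100A8, SLPI, IL1A, IL33, IL1R1, IL18, CXCL8, CXCL10, NFKBIA, NFKBIZ, NFKB1, RELA, MME, ANKRD1, ASPM, KRT5, TP63, VIM, FN1, SPARC, MMP1, MMP3, THBS1, DKK1, ID3, MKI67, CDKN1A, MYC, OASL, RSAD2 and ISG15, were picked once their values had been seen. The members and lists were chosen with earlier results of these data known. The fit was tested on simulated data. Alternatives were DESeq2 1.42.0, limma 3.58.1, other scalings, filters and thresholds, a replicate block, thinned reads and left-out libraries.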

Additional observations from a re-analysis of the deposited data

Results flagged for a closer look

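The difference between labelled KOs and wt was not the same in 3D and in 2D for 6012 genes (edgeR, test of the difference itself). Among the genes with the largest rises and falls, the largest such differences, 3D minus 2D on the log2 scale, were 9.10 for LCN2, -8.13 for PADI4, -7.53 for IGFBP5, 6.49 for IL1RN, 6.16 for PI3 and 5.32 for IL36B. All of these 6 genes were below 1 CPM in every 2D library of both groups, so the value in 2D rests on few reads. In tumorspheres PADI4 went from 300, 292 and 96.4 CPM in wt to 0.466, 0.601 and 0.695 CPM in the labelled KOs. PADI4 encodes an enzyme that turns arginine of histones and other proteins into citrulline.

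Labelled KOs and KOd tumorspheres differed for 7710 genes. Among the genes with the largest rises and falls, the largest differences, labelled KOs minus KOd on the log2 scale, were -9.98 for HPGD, -7.63 for H2AJ, -6.74 for MEST, -5.95 for SGCZ, -5.57 for IGFBP5 and 5.50 for IL24. SGCZ had no read in the labelled KOs, so its value is a fitted one and not a bound. H2AJ, a histone H2A variant, had 11.2, 11.3 and 8.51 CPM in KOd, 28.5 to 30.5 CPM in wt and at most 0.0501 CPM in the labelled KOs. In 2D, H2AJ had 0.0537 to 0.0852 CPM in the labelled KOs against 20.2 to 36.9 CPM in wt, so this fall was seen in both cultures (interaction -0.64 ± 0.76, adjusted p = 0.54). IL24, a cytokine of the interleukin-10 family, had at least 27.6 CPM in the labelled KOs and at most 0.703 CPM in any wt or KOd tumorsphere library.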

How the results depend on the processing

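The counts of higher, lower and 2-fold genes stayed within 1.5 times under every alternative run. The interaction count was 3798 at an adjusted p of 0.01 in place of 6012 at 0.05. For NNMT, which did not pass in any of these, the log2 fold change turned to 0.022 without wt C (adjusted p = 0.92) and to 0.046 with all of the libraries that stand apart left out (0.74), and leaving out 1 library at a time gave -0.35 to 0.022. The neighbours of NNMT C11orf71 and REXO2, which did not pass, turned as well, C11orf71 to 0.11 (adjusted p = 0.60) with library totals alone and REXO2 to -0.0030 (0.99) without wt C (-0.0030 to 0.094 with 1 library left out). With 1 library left out, ASPM ran from -0.50 (without wt C) to 0.0012 (without wt B) and NFKBIA from -0.042 (without wt B) to 0.20 (without wt C), and NFKBIA passed at 0.22 (adjusted p = 0.022) with all libraries that stand apart left out. Among the genes named, the calls lost without wt C included DNMT1 (adjusted p = 0.089), EBP (0.068), ESAM (0.10), NLRC5 (0.057), MKI67 and CCN1. Those of C3 and ASPM were gained, and the cause was not tested. The replicate letters do not pair the libraries, since same-letter deviations correlated at -0.129, 0.078 and -0.092. A replicate block gave 4618 higher and 4642 lower genes over all groups and 4206 and 4623 in the 2 groups alone, 5995 for the interaction and 7703 against KOd. With 3 libraries a group and no count of cultures, small differences of low genes were not detectable at this depth.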

Other observations

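Other groups of genes split in the labelled KOs. The lysosome and autophagy list had 15 of 32 genes higher and 8 lower (4 lower with library totals alone). SQSTM1, the autophagy receptor p62, went from 982, 910 and 827 CPM in wt to 3324, 3266 and 3295 CPM, while LAMP1, a main protein of the lysosome membrane, went from 515, 508 and 519 CPM to 180, 170 and 178 CPM. Of 35 glycolysis and hypoxia genes, 15 rose and 8 fell. The first enzyme of glycolysis, HK2, went from 45.8, 46.2 and 43.2 CPM to 172, 169 and 170 CPM, while the glucose carrier SLC2A1 went from 429, 399 and 416 CPM to 158, 157 and 160 CPM. Among 32 ATF4 and amino acid response genes, 7 rose (11 without the libraries that stand apart) and 11 fell, and the amino acid carrier SLC38A2 fell by 2.00 (SE 0.12) on the log2 scale. Of 27 NRF2 and redox genes, 11 rose and 6 fell (7 rose without wt C), and NQO1, a quinone reductase, fell by 1.10 (SE 0.18).

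Cancer-testis antigens had 18 of 31 genes tested, of which 12 rose and 4 fell. MAGEC1 went from 171, 173 and 171 CPM in wt to 3.43, 3.23 and 2.94 CPM, and MAGEA3 rose by 1.23 ± 0.14, though reads of near-identical MAGE copies may be split between them. HSD11B1, which regenerates active glucocorticoid, went from 0.678, 0.202 and 0.488 CPM in wt to 29.9, 28.2 and 26.7 CPM, in a glucocorticoid list with 6 of 19 higher and 6 lower. In the Notch list (3 of 16 higher, 6 lower), the targets HEYL and HEY1 went opposite ways, HEYL from 10.8 to 17.7 CPM in wt to at most 0.200 CPM and HEY1 up by 1.82 ± 0.16. ALDH1A3, an aldehyde dehydrogenase of the breast cancer stem cell list, went from at most 0.134 CPM in wt to 5.29, 5.86 and 5.74 CPM. MEG3, an imprinted long non-coding RNA, had 27.6, 27.2 and 3.10 CPM in wt and 0.162 to 0.175 CPM in the labelled KOs, with wt C the low one of the wt libraries. Laminin chains (3 of 11 higher, 5 lower), unfolded protein response genes (8 of 22 higher, 7 lower), heat shock chaperones (5 of 20 in each direction), PRC2 and H3K27 demethylase genes (4 of 13 higher, 5 lower) and chromatin-bound RNAs (2 of 16 higher, 6 lower) are given as counts. For sterol and fatty acid genes, 2 of 32 rose and 2 fell, but 12 rose and 9 fell without the 3 libraries that stand apart. Endothelial markers (3 of 8 tested higher, 1 lower) and neural markers (1 of 7 tested higher, 3 lower) had summed levels of 58.3 to 80.1 and 194 to 222 CPM in wt and of 39.3 to 44.1 and 124 to 132 CPM in the labelled KOs.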
